A study of Mus musculus with 2 samples.

Results

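The genes described here encode the extracellular proteases, inhibitors and crosslinking enzymes that remodel collagen and proteoglycan matrix, measured in the embryonic mouse face. They are the protein-coding genes whose symbols belong to the Mmp, Timp, Adamts, Adamtsl and Lox families, 55 genes of the 43346 annotated genes in the files, 21474 of them protein-coding. Mmp1a, the other mouse interstitial collagenase gene, was not analysed here. The material was facial prominence tissue of B6NCrl mouse embryos at 11.5 days, the swellings around the primitive mouth that become the jaws and the middle of the face. The tissue of 109 embryos was pooled for library 1 and that of 88 for library 2, with both sexes in each pool, and each library was made from 10 ng of total RNA longer than 200 nt with spike-ins added. Both pools were the same tissue of the same strain and age, so there was 1 group with 2 replicates. No condition was compared with another and no p-value was computed.

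Matrix metalloproteinases (Mmp) are zinc enzymes that are mostly made as inactive proenzymes and cut collagens, gelatin and other matrix and cell surface proteins, and the tissue inhibitors of metalloproteinases (Timp) block their active site. Adamts enzymes carry thrombospondin repeats and cut procollagens and the proteoglycans versican and aggrecan, while Adamtsl proteins keep the repeats and lack the protease domain. Lysyl oxidases (Lox) oxidise lysines of collagen and elastin so that the fibres become crosslinked. In the face, mesenchyme derived from the neural crest lays down and remodels this matrix as the prominences grow and meet.

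The libraries held 30849058 and 31600302 expected counts, of which 28627217 and 29281440 fell on annotated genes and 33137 and 32250 on the 55 members. Levels are given as TPM, which is per transcript length and lets genes of a library be compared, and errors are the SD over the 2 libraries. Spike-ins took 15.4% and 15.8% of the TPM. All 10 facial mesenchyme markers that were checked, among them Msx1 and Alx1, were at or above 36.8 TPM. Markers of other tissues were present too. In library 1 and library 2, 8 neuron markers summed to 612 and 509 TPM, 8 surface epithelium markers to 248 and 219 TPM, 8 endothelium markers to 214 and 185 TPM, and 8 heart markers to 26.9 and 90.7 TPM. In such bulk tissue, fewer cells of a type and less RNA per cell cannot be told apart.

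A member was counted as on at 1 TPM or more in both libraries, and 32 of 55 (58.2%) were on, beside 58.5% of all protein-coding genes. The share on differed by family. It was 9 of 22 Mmp genes, 3 of 4 Timp genes, 14 of 19 Adamts genes, 2 of 5 Adamtsl genes and 4 of 5 Lox genes. Another 14 members had counts but stayed below 1 TPM in both libraries, 1 passed it in library 2 alone, and 8 had no count in either library (20.7% of all protein-coding genes had none). The median level was 1.86 TPM over the members and 3.45 TPM over all protein-coding genes. Only 11 members reached a mean of 10 TPM and 3 reached 50 TPM.

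The Mmp family carried 257 ± 15.7 TPM (SD, n = 2), the Timp family 96.9 ± 0.537 TPM, the Adamts family 89.4 ± 3.42 TPM, the Lox family 41.8 ± 1.51 TPM and the Adamtsl family 9.22 ± 0.750 TPM. More of the summed level of all members therefore lay in the Mmp genes (52.0%) than in the other 4 families together, although 13 of 22 Mmp genes were not on.

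**Figure D1:**
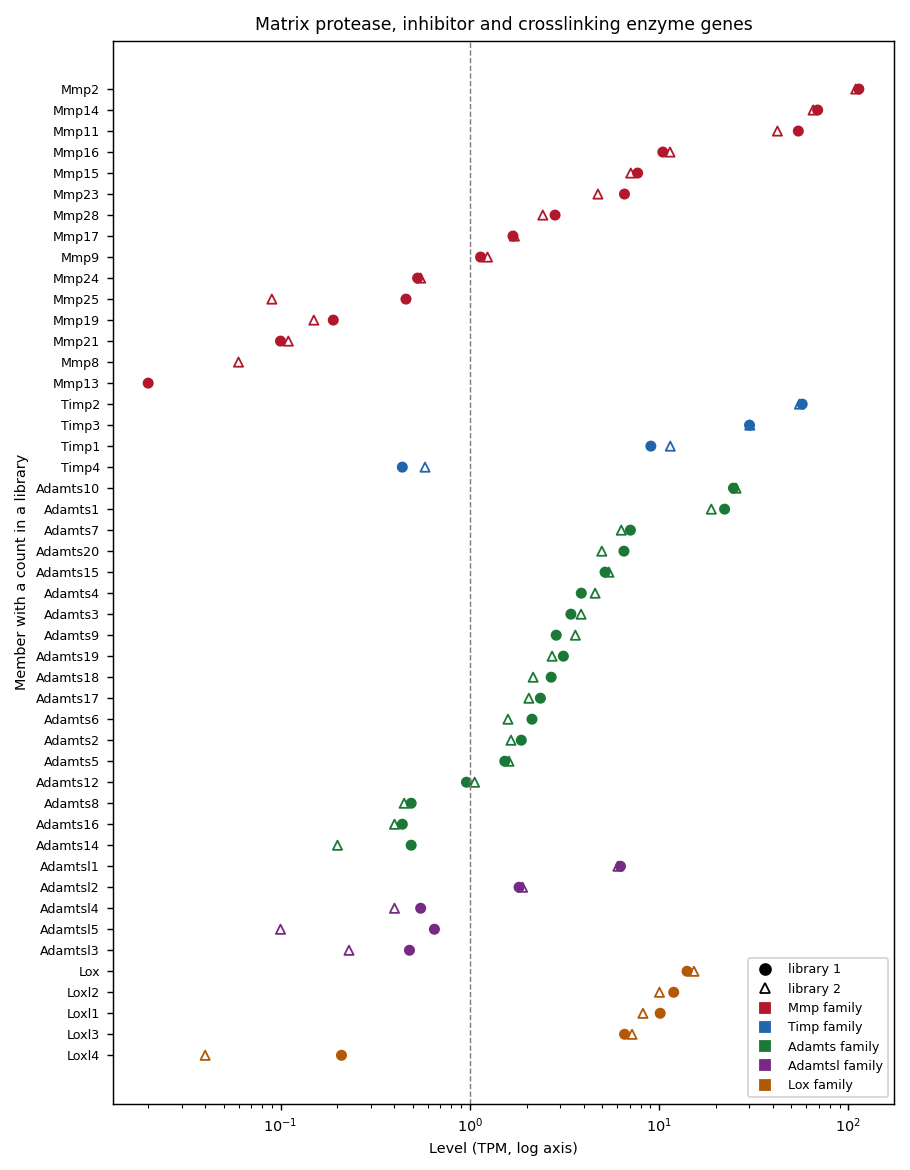
Level of each member with a count in at least 1 library, in TPM on a log axis, with library 1 as filled circles, library 2 as open triangles, colours for the families and a dashed line at 1 TPM. Mmp2, Mmp14, Timp2 and Mmp11 lie farthest to the right with both libraries close together, and a library at 0 (library 1 for Mmp8, library 2 for Mmp13) has no symbol.

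Among the proteases, Mmp2, Mmp14 and Mmp11 stood far above the other members of the Mmp family, and together they made up 88.1% ± 0.157 of its TPM. Mmp2, gelatinase A, which cuts denatured collagen and basement membrane collagen, was at 114 TPM in library 1 and 109 TPM in library 2. Mmp14, the transmembrane collagenase that activates the Mmp2 proenzyme at the cell surface, was at 68.8 and 65.0 TPM. Both ranked high in the tissue as a whole, with a mean above that of 93.9% of protein-coding genes for Mmp2 and of 89.5% for Mmp14. Mmp11, or stromelysin-3, which is activated inside the cell by furin, was at 54.4 and 42.2 TPM. The 2 libraries of each of these 3 genes did not overlap those of the next gene in the order.

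The libraries differed more in the TPM of Mmp11 than in its counts. Its counts were 1898 and 1785, which after scaling is 1.06-fold higher in library 1 with a 95% interval of 0.995 to 1.13. A transcript of 335 nt annotated as subject to nonsense-mediated decay was given 10.5 TPM in library 1 and 2.37 TPM in library 2. The protein-coding transcripts of Mmp11 held 43.1 and 39.7 TPM.

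The other membrane-type enzymes were lower. Mmp16, another transmembrane activator of Mmp2, was at 10.5 and 11.4 TPM. Mmp15 of the same group was at 7.70 and 7.08 TPM, so that both sat well below Mmp14 in each library, which exceeded Mmp16 6.14-fold ± 0.618. Mmp24, known mainly from nervous tissue, was below the threshold at 0.53 and 0.55 TPM. Of the enzymes held by a glycolipid anchor, Mmp17 was on at 1.69 and 1.72 TPM. Mmp25, known from leukocytes, was at 0.46 and 0.09 TPM, from 31 and 6 counts.

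Mmp23, which lacks the cysteine switch of other proenzymes, was at 6.56 and 4.75 TPM. Mmp28, or epilysin, was at 2.82 and 2.43 TPM. Mmp9, gelatinase B, which neutrophils and osteoclasts make in quantity, was just above the threshold at 1.14 and 1.24 TPM. The level of Mmp2 was 99.6 times that of Mmp9 in library 1 and 88.1 times in library 2. By protein-coding transcripts alone Mmp9 stood at 0.55 and 1.16 TPM, below the threshold in library 1. Neutrophil markers, of which 4 of 8 were on beside 58.5% of all protein-coding genes, summed to 25.5 and 23.1 TPM. S100a8 at 13.0 and 10.5 TPM, Mpo at 4.49 and 5.47 TPM and S100a9 at 4.37 and 4.29 TPM carried most of this sum, and Ly6g was at 0.17 and 0 TPM. Bone and osteoclast markers, of which 4 of 8 were on, summed to 31.4 and 30.3 TPM. Ctsk, the osteoclast collagenase cathepsin K, was at 8.96 and 9.98 TPM and Acp5 at 10.7 and 10.1 TPM. Calcr, at 0.51 and 0.39 TPM, Ocstamp, at 0.22 and 0.09 TPM, and Bglap, at 0.43 and 0.19 TPM, were below the threshold. Macrophage markers, of which 7 of 8 were on, summed to 69.4 and 64.7 TPM. The part of these cells in the Mmp9 level was not tested.

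Mmp19 was at 0.19 and 0.15 TPM. Mmp21, a gene of left-right body asymmetry, was at 0.10 and 0.11 TPM from 3 and 4 counts.

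The remaining 9 Mmp genes, the secreted collagenases, the stromelysins Mmp3 and Mmp10, matrilysin, macrophage elastase, enamelysin and Mmp27, lie side by side on chromosome 9, and none was on. This cluster spans 427 kb of the mm10 assembly, from position 7272514 to 7699585. It held 1 count in library 1 and 3 counts in library 2 over all 9 genes. The 1 count fell on Mmp13, the collagenase of hypertrophic cartilage and bone, and the 3 counts on Mmp8, the neutrophil collagenase. Mmp1b, Mmp3, Mmp7, Mmp10, Mmp12, Mmp20 and Mmp27 were at 0 counts in both libraries, a result that permits levels of up to 0.0452 to 0.151 TPM for a limit of 3 counts per library. Outside this cluster, 9 of 13 Mmp genes were on. Intervals and limits in this text cover counting error only and leave out variation between pools. Reads are not independent molecules, so the counting error itself may be larger than given.

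Promoter sequences were available for 36 of the 55 members, in 39 windows reaching from 250 bases before to 50 bases after a start site in the RefSeq table for GRCm38.p6. These covered 16 of the 32 members on and 20 members not on, and Mmp2, Adamts10 and Lox were among those without a window. Most cluster genes shared a word that was not found in the other members with a window. The AP-1 word TGAGTCA, which is read as TGACTCA on the other strand, is the recognition sequence of the Fos and Jun proteins. It was found in 6 of 9 cluster genes and in 0 of 27 other members, counting a gene with the word in any window. The share over all 32851 windows, 5.20%, is per window and not per gene. The cluster genes had 11 windows, and Mmp12 and Mmp7 each had a further window without the word. The first base of the word lay 35 to 93 bases before the start. These sequences are shown because the word recurs across genes that were silent here. They are the 120 bases before each start, on the strand of the gene, with the AP-1 word in capitals.
Mmp13, chr9:7272394-7272513, plus strand: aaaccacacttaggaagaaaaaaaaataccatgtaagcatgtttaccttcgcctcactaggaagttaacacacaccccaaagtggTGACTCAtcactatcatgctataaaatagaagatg
Mmp12, chr9:7347254-7347373, plus strand: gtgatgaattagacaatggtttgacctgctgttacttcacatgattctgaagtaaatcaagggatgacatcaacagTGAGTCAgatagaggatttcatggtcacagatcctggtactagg
Mmp1b, chr9:7388027-7388146, minus strand: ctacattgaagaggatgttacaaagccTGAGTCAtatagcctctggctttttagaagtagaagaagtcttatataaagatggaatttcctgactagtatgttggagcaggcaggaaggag
Mmp3, chr9:7445702-7445821, plus strand: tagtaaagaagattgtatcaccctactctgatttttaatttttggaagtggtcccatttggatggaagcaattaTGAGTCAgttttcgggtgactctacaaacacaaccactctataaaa
Mmp10, chr9:7502222-7502341, plus strand: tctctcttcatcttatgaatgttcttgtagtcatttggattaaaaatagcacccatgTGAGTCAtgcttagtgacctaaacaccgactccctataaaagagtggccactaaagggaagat
Mmp7, chr9:7691970-7692089, plus strand: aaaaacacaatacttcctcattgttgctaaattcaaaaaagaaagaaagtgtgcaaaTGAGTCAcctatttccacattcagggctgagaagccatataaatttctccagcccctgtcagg

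The members outside the cluster differed in the opposite way. The GC box GGGCGG, or CCGCCC on the other strand, is bound by Sp1 and related factors. Counted per gene, it was found in 23 of 27 of these members and in 0 of 9 cluster genes. Counted per window, it was found in 35.7% of all windows. The 3 following promoters belong to abundant members and carry the box in capitals, adjacent boxes running together.
Mmp14, chr14:54431478-54431597, plus strand: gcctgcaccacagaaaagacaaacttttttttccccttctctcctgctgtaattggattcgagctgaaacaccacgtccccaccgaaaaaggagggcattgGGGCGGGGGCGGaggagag
Mmp11, chr10:75932503-75932622, minus strand: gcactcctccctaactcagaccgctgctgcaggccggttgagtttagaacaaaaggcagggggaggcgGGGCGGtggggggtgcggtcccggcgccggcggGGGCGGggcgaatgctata
Timp2, chr11:118355412-118355531, minus strand: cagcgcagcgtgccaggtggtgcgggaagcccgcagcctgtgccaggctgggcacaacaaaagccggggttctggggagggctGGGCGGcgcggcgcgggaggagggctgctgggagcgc

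The observed over expected ratio of CpG dinucleotides, which is near 1 where CpG has not been depleted, had a median of 0.0878 over the cluster windows, 0.698 over the windows of other members and 0.384 over all windows in the table. These features did not separate members that were on from members that were off outside the cluster. Among those with a window, the GC box was present in 15 of 16 members on and in 8 of 11 that were not. The other members on, Mmp2 among them, could not be compared. The median CpG ratio was 0.683 for the former and 0.723 for the latter. Adamts14, at 0.49 and 0.20 TPM, had 6 GC boxes and a CpG ratio of 1.01. A word in a promoter is a match of letters only, and binding was not measured.

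**Figure D2:**
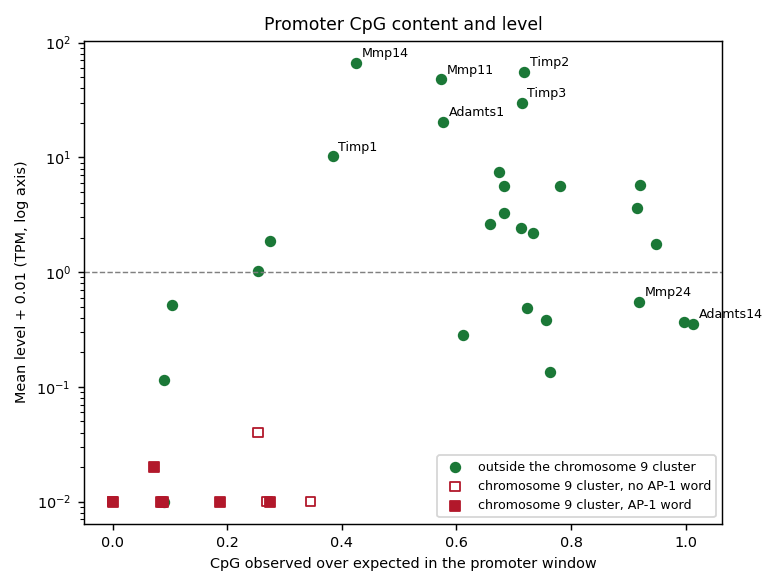
CpG observed over expected in each promoter window against the mean level of its gene in TPM plus 0.01 on a log axis, with squares for the Mmp cluster of chromosome 9, filled where the AP-1 word is present, circles for the other members and a dashed line at the threshold. The cluster windows lie at CpG ratios up to 0.345 and at the bottom of the level axis, and the other members range from 0.0897 to 1.01 on both sides of the threshold.

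Among the inhibitors, Timp2 and Timp3 were high, Timp1 intermediate and Timp4 below the threshold. Timp2, which both inhibits metalloproteinases and bridges Mmp14 and the Mmp2 proenzyme during activation, was at 57.0 and 55.1 TPM. Timp3, which binds to the matrix and also blocks ADAM and Adamts enzymes, was at 30.0 and 30.1 TPM, the closest pair of values of any member above 10 TPM. Timp1 was at 9.04 and 11.45 TPM. Timp4, known from heart and brain, was at 0.44 and 0.58 TPM from 12 and 16 counts. The order Timp2, Timp3, Timp1, Timp4 was the same in both libraries and no neighbours overlapped.

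The genes Timp1, Timp3 and Timp4 each lie inside a synapsin gene on the opposite strand, Syn1 at 2.75 and 3.05 TPM, Syn3 at 1.54 and 2.34 TPM and Syn2 at 2.23 and 1.89 TPM. No source used here states whether the libraries kept strand, so reads of such pairs may be assigned to either gene. In all, 20 members overlapped a gene on the opposite strand, 13 of them a protein-coding gene, and 8 of these 13 were on.

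The enzymes and inhibitors of the Mmp2 activation complex kept close proportions in both pools. The ratio of Mmp2 to Timp2 was 1.99 ± 0.00622 and that of Mmp14 to Timp2 was 1.19 ± 0.0186. Mmp2 exceeded Mmp14 1.67-fold ± 0.0207. Between these pools the median size of the log2 ratio over all protein-coding genes with 50 counts was 0.126. Whether close proportions are particular to this complex was not tested. Over whole families, Mmp exceeded Timp 2.66-fold ± 0.177 and Adamts 2.87-fold ± 0.0659. These ratios compare RNA levels within a library, and enzyme activity was not measured.

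The Adamts family was broad rather than steep, with 14 genes on between 1.57 and 25.1 TPM and none close to Mmp2. Adamts10, a protease associated with fibrillin microfibrils, was at 24.7 and 25.5 TPM, the highest gene of the family. Adamts1, which cuts versican and aggrecan, was at 22.2 and 18.9 TPM. This order rested on the transcripts counted. Protein-coding transcripts took only 12.0% and 12.9% of the Adamts10 level, or 2.96 and 3.29 TPM, the rest going to transcripts annotated as retained introns or as subject to nonsense-mediated decay. By protein-coding transcripts, Adamts1 exceeded Adamts10 6.36-fold ± 1.04, where by all transcripts its ratio to Adamts10 was 0.819 ± 0.111. Adamts6, the closest relative of Adamts10, was at 2.13 and 1.59 TPM.

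The proteoglycan-cutting group, to which Adamts1 belongs, had 6 of 7 genes on and summed to 41.1 ± 2.19 TPM. Adamts20, the gene of the belted pigment pattern in mice, was at 6.52 and 4.98 TPM. Adamts15 was at 5.18 and 5.43 TPM. Adamts4, an aggrecanase, was at 3.88 and 4.59 TPM. Adamts9, which acts with Adamts20 on versican in the mouse palate, was at 2.86 and 3.61 TPM. Adamts5, the main aggrecanase of mouse cartilage, was at 1.53 and 1.61 TPM. Adamts8 stayed below the threshold at 0.49 and 0.45 TPM. Their substrate versican, Vcan, was at 78.0 and 79.7 TPM, whereas aggrecan, Acan, the proteoglycan of cartilage, was at 0.52 and 0.47 TPM. The cartilage collagen Col2a1 was high, at 135 and 123 TPM.

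Of the procollagen N-propeptidases, which trim the amino end of fibrillar procollagens, Adamts3 was at 3.42 and 3.87 TPM and Adamts2 at 1.87 and 1.65 TPM. Adamts14 was below the threshold. Protein-coding transcripts of Adamts2 held only 0.61 and 0.50 TPM, so that by them Adamts3 exceeded Adamts2 6.67-fold ± 1.51. Of the pair that cuts cartilage oligomeric matrix protein, Adamts7 was at 7.05 and 6.31 TPM. Adamts12 was the 1 member that passed the threshold in a single library, with 0.96 and 1.06 TPM.

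The other Adamts genes on were Adamts19, needed for heart valves in mice, at 3.12 and 2.72 TPM, and Adamts18 at 2.69 and 2.16 TPM. Adamts17, mutated in a human short stature and lens syndrome, was at 2.36 and 2.05 TPM. Adamts16 was at 0.44 and 0.40 TPM. Adamts13, the liver protease of von Willebrand factor, had no count, which allows up to 0.0530 TPM in library 1 and 0.0520 TPM in library 2. Between Adamts7 and Adamts2 many neighbours in the order overlapped over the 2 libraries. Of 13 neighbouring pairs in the family, 7 overlapped. Overlap here can set a value of one library against a value of the other. The order changed between the libraries for Adamts20 and Adamts15, Adamts9 and Adamts19, and Adamts6 and Adamts2, so those ranks were not resolved. The other overlapping pairs kept their order within each library.

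Among the Adamtsl genes, Adamtsl1, also called punctin, was at 6.25 and 6.06 TPM. Adamtsl2, a matrix protein mutated in human geleophysic dysplasia, was at 1.82 and 1.90 TPM, of which protein-coding transcripts held 0.42 and 0.89 TPM. The other 3 were below the threshold, Adamtsl4, mutated in human lens displacement, at 0.55 and 0.40 TPM, Adamtsl3 at 0.48 and 0.23 TPM and Adamtsl5 at 0.65 and 0.10 TPM. None of the Adamtsl5 level was assigned to protein-coding transcripts.

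Of the crosslinking enzymes, 4 of 5 were on and none stood far above the rest. Lox itself was at 14.0 and 15.3 TPM. Loxl2, which has scavenger receptor domains and acts on basement membrane collagen, was at 11.9 and 10.0 TPM. Loxl1, an enzyme of elastic fibres, was at 10.1 and 8.21 TPM. It lay below Loxl2 within each library, although its value in library 1 passed that of Loxl2 in library 2. Loxl3, which is needed for the palate in mice, was at 6.57 and 7.19 TPM. Loxl4 was nearly silent at 0.21 and 0.04 TPM from 16 and 3 counts. Lox exceeded Loxl2 1.35-fold ± 0.244. Elastin, Eln, a substrate of these enzymes, was at 2.55 and 2.41 TPM, and the collagen Col3a1 at 391 and 364 TPM.

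The transcript files showed that the level of a gene was not always the level of its coding form. Of the 32 members on, 28 had the same leading transcript, the one with the largest share of the gene's TPM, in both libraries. The leading transcript was protein-coding in both libraries for 26 members and not in either for 4, Adamts10, Adamts2, Adamts9 and Adamtsl2. It was protein-coding in 1 library for Adamts20 and Mmp9. For 19 members at least 90% of the level lay in protein-coding transcripts in both libraries, among them Mmp2, Mmp14, Timp2, Timp3, Lox and Loxl2. Counting protein-coding transcripts alone left 29 of the 32 on, and Mmp9, Adamts2 and Adamtsl2 dropped below the threshold. Others stayed on at a lower level. Adamts20 was at 2.77 and 2.60 TPM by protein-coding transcripts, Adamts9 at 1.09 and 1.28 TPM and Adamts7 at 4.70 and 3.20 TPM. Adamtsl1 was at 3.62 and 3.18 TPM by this count, and Mmp23 at 3.37 and 2.82 TPM. The Adamts sum fell from 89.4 to 57.1 ± 2.68 TPM by this count, and Mmp exceeded Adamts 4.31-fold ± 0.0590.

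The deposited posterior SD of the gene count was 0 in both libraries for 25 of the 32 members on, and it reached at most 2.10% of the count, in Loxl2. Assignment between transcripts of a gene was looser. The transcript Adamts10-207 had 633 counts with a posterior SD of 70.1 in library 1 and 312 counts with a posterior SD of 75.2 in library 2.

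**Figure D3:**
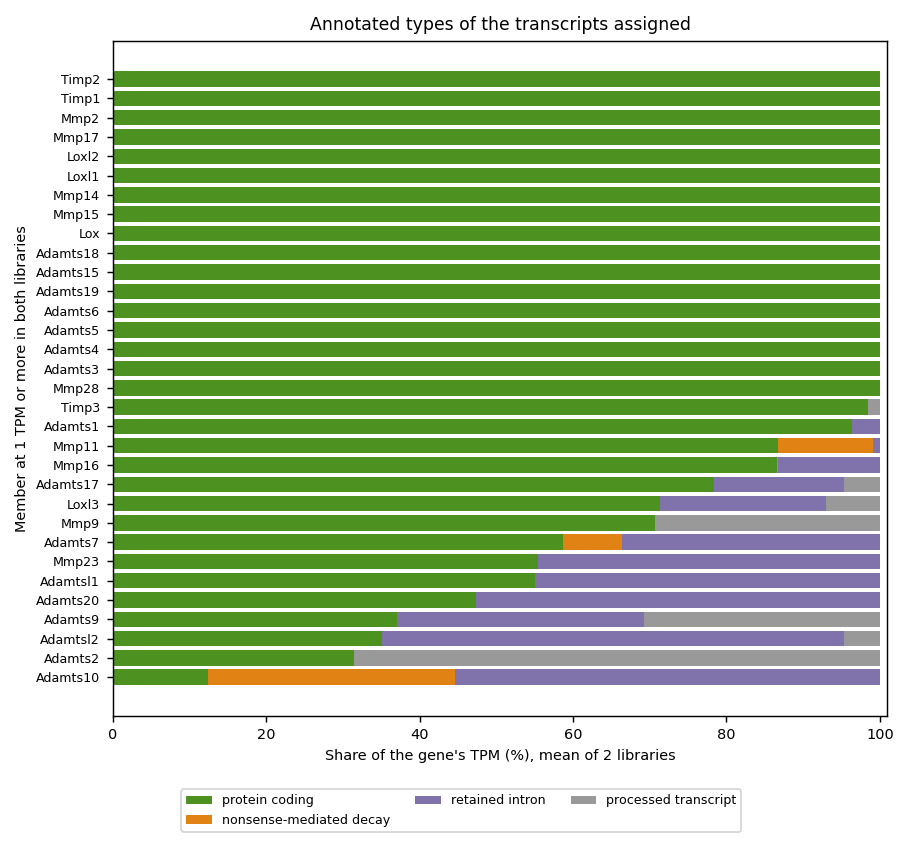
Share of each gene's TPM, in percent and as the mean of the 2 libraries, given to transcripts of each annotated type, for the 32 members on, sorted by the protein-coding share. Adamts10 at the bottom has 12.4% in protein-coding transcripts, and most Mmp and Lox genes and all 3 Timp genes on are near 100%.

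The libraries were then compared for each member from expected counts scaled by TMM, a factor that aligns the bulk of genes. There were 38 members with at least 50 counts over both libraries, and 3 of them (7.89%) differed 1.5-fold or more, beside 5.58% of all protein-coding genes with 50 counts. Adamts14 had 51 and 21 counts and was 2.42-fold higher in library 1, with an exact 95% interval of 1.43 to 4.24. It was the 1 member past 1.5-fold toward library 1, where 3.53% of all protein-coding genes were. Toward library 2, where 2.04% of all protein-coding genes passed, there were 2 members. Mmp9, with 47 and 76 counts, was 1.62-fold higher (1.11 to 2.38), and Adamtsl2, with 58 and 92 counts, 1.59-fold higher (1.13 to 2.25). These are ratios of counts, and the TPM was much closer, 1.14 and 1.24 for Mmp9 and 1.82 and 1.90 for Adamtsl2. The deposited gene length differed between library 1 and library 2, at 2109 and 3037 nt for Mmp9 and 1653 and 2417 nt for Adamtsl2. Adamts14, Mmp9 and Adamtsl2 all rested on few counts, and no member with 200 counts or more passed 1.5-fold.

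After Adamts14, the members higher in library 1 by the largest ratio were Mmp23 by 1.35-fold (1.04 to 1.76), Adamts6 by 1.31-fold (1.06 to 1.62), Loxl2 by 1.22-fold (1.11 to 1.34) and Adamts18 by 1.22-fold (1.03 to 1.45). After Mmp9 and Adamtsl2, those higher in library 2 were Timp1 by 1.29-fold (1.03 to 1.63), Mmp16 by 1.16-fold (1.05 to 1.28) and Adamts4 by 1.16-fold (0.999 to 1.34). The most abundant members differed little. Timp2 had 4155 and 4151 counts, and Mmp2 was 1.02-fold higher in library 1 (0.985 to 1.05). Below 50 counts, Mmp25 was 5.16-fold higher in library 1 (2.12 to 15.1) and Loxl4 5.32-fold higher (1.52 to 28.5).

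**Figure D4:**
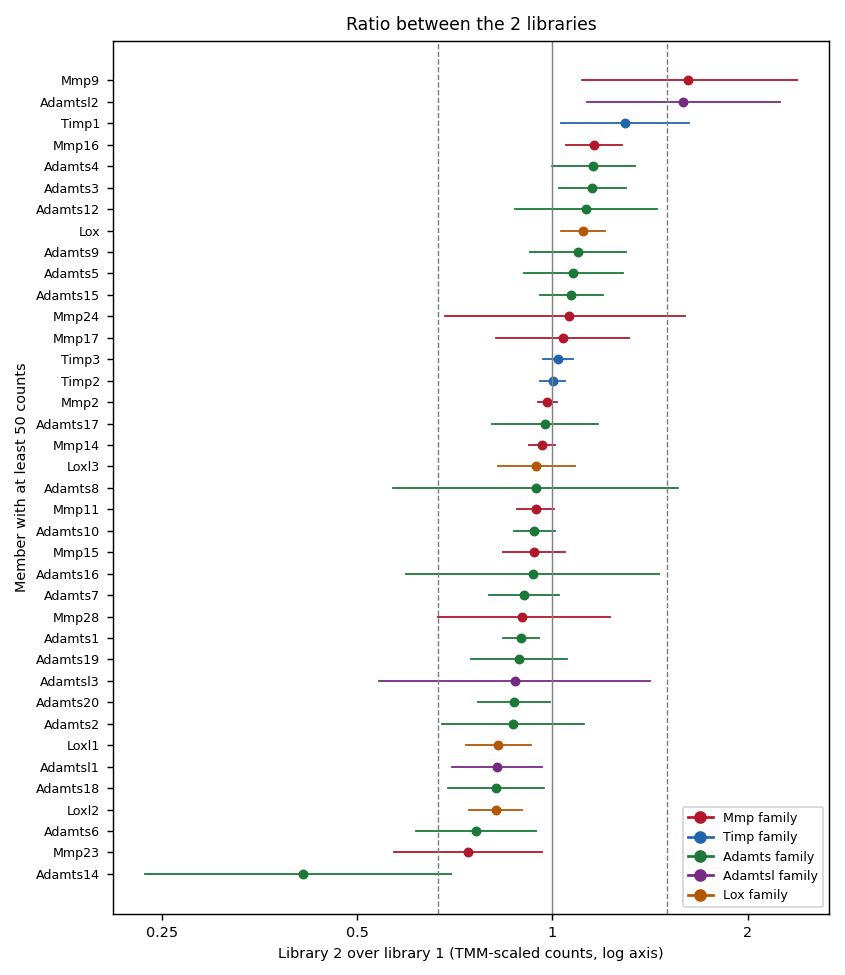
Ratio of library 2 to library 1 on a log axis, from TMM-scaled counts, for the 38 members with at least 50 counts, with exact 95% intervals of the split of the counts as bars, colours for the families and dashed lines at 1.5-fold. Mmp9 and Adamtsl2 lie past the right line, Adamts14 past the left line, and Mmp2, Mmp14, Timp2 and Timp3 sit close to 1 with narrow intervals.

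The interval left out a ratio of 1 for 15 of the 38 members (39.5%), beside 43.6% of all protein-coding genes. These were 9 members toward library 1 and 6 toward library 2, beside 20.1% and 23.6% of all protein-coding genes. The split depended on the scaling, and it was 14 to 5 with scaling by the total counts of annotated genes and 15 to 3 with scaling by spike-in counts. All protein-coding genes moved the same way, from 2721 toward library 1 and 3194 toward library 2 with TMM to 3518 and 2388 with total counts and 4303 and 1813 with spike-in counts. The share of these calls toward library 1 was 60.0% for the members and 46.0% for all protein-coding genes with TMM, 73.7% and 59.6% with total counts, and 83.3% and 70.4% with spike-in counts. Between these pools, genes varied with a coefficient of variation of 9.80% beyond counting error, and Adamts14, Mmp9 and Adamtsl2 (3 of 38, 7.89%) lay more than 2 SD of this spread and counting error from a ratio of 1, beside 5.9% of all protein-coding genes. The median log2 ratio of library 2 to library 1 was -0.08 over the 38 members and 0.00 over all protein-coding genes, and 23 members (60.5%) were higher in library 1, beside 49.2% of all protein-coding genes. Heart markers were 3.64-fold and muscle markers 1.52-fold higher in library 2 by their median, and neuron markers 1.20-fold higher in library 1. The part of such tissue differences in the members' ratios was not tested.

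Genes that act on or with these enzymes were taken from lists that were chosen with earlier results known. The counts of list genes on stand beside the 58.5% of all protein-coding genes that were on. Of 10 activators of protease proenzymes, 6 were on. Plat, tissue plasminogen activator, was at 39.0 and 35.9 TPM, and the proprotein convertases Pcsk5 and Pcsk7 were at 13.2 and 11.2 TPM and at 9.56 and 7.08 TPM. Furin was at 3.98 and 4.55 TPM, and Plg, which encodes plasminogen and is made by liver, at 0.04 and 0.11 TPM. Of 8 inhibitors outside the Timp family, 4 were on. Serpine2, protease nexin-1, which blocks thrombin and plasminogen activators, reached 135 and 128 TPM. Reck, a membrane-anchored inhibitor of metalloproteinases, was at 16.4 and 18.3 TPM, and Serping1, the inhibitor of the complement protease C1, at 16.9 and 15.8 TPM.

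For the carboxyl end of procollagens, 4 of 7 astacin proteases and enhancers were on. Bmp1, the C-propeptidase that also activates Lox, was at 26.7 and 25.7 TPM, and its enhancer Pcolce at 103 and 97.3 TPM. All 15 collagen hydroxylases, chaperones and partners were on, between 4.85 and 485 TPM, led by P4hb, a subunit of prolyl 4-hydroxylase, at 492 and 479 TPM. Serpinh1, the collagen chaperone Hsp47, was at 281 and 262 TPM. Of 5 transglutaminases and peroxidasins, the crosslinking enzymes outside the Lox family, 2 were on. They were Pxdn, which crosslinks basement membrane collagen, at 70.6 and 73.0 TPM, and Tgm2 at 3.29 and 1.66 TPM.

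The membrane-bound ADAM proteins, relatives of Adamts without thrombospondin repeats and not all of them active proteases, had 8 of 10 genes on. Adam10, which sheds Notch and other receptors, was at 47.6 and 53.0 TPM, Adam17, the tumour necrosis factor convertase, at 29.5 and 30.1 TPM, and Adam9 at 17.9 and 18.3 TPM. Of 5 further proteins with thrombospondin repeats, 4 were on, led by Thsd7b at 8.64 and 8.30 TPM, and Papln was at 0.04 and 0.02 TPM. Of 18 matrix substrates, 16 were on, with a median of 27.2 TPM. Col1a2 was at 187 and 171 TPM, Col2a1 at 135 and 123 TPM and fibronectin, Fn1, at 91.9 and 92.2 TPM. Acan and the brain proteoglycan Bcan were the 2 below the threshold.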

How the data were processed

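Total RNA-seq of 2 libraries of facial prominence tissue was used as deposited. The authors quantified each library on mm10 with GENCODE M4 models, per the deposited notes; columns are named as RSEM names them. Tool versions and strandedness are not given in the sources used here. The deposited expected counts, so named per the file headers, are estimated reads per gene or transcript, not normalized. TPM, so named per the file headers, was taken as the authors' abundance per effective length. Its total included spike-ins, at 15.4% and 15.8%, beside 84.6% and 84.2% for annotated genes. The deposited isoform percentages give a transcript's percent of its gene's TPM. The posterior SD of each count is a score deposited by the authors.

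GENCODE M21 gave gene symbols, types and positions, matched on the identifier without version for 42462 of 43346 genes, and promoters from RefSeq on GRCm38.p6. Expected counts were rounded for intervals and dispersion. Ratios used TMM (edgeR 4.0.16, R 4.3.3), exact 95% Clopper-Pearson intervals of the split of the 2 counts, and a minimum of 50 counts. The spread is the root of the common dispersion from edgeR, with an intercept alone. DESeq2 1.42.0 served as an alternative. The calculations were tested on simulated data. All members were described; for ratios, those past 1.5-fold and the 5 largest each way were named. From 8 related lists the leading genes, and from 10 marker lists sums and counts, were used. Members and lists were chosen with earlier results of these data known. The pools are separate sets of embryos.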

Additional observations from a re-analysis of the deposited data

How the results depend on the processing

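With 2 pools of 1 group, levels and ratios were described and not tested. No paired analysis was possible because there is 1 group. The number of members on was 32 to 33 with either library alone, 26 at 2 TPM, 34 at 0.5 TPM, and 29 by protein-coding transcripts alone, a count added after seeing the data. Adamtsl had 1 gene on, not 2, at 2 TPM and by protein-coding transcripts. TPM rescaled to annotated genes, which leaves spike-ins out of the total, gave sums of 305 for Mmp, 115 for Timp, 106 for Adamts, 10.9 for Adamtsl and 49.5 for Lox, and a median of 7.05 TPM over the members on, beside 5.95 as reported. Posterior mean TPM gave 95.1 for Timp and 11.9 for Adamtsl, and the cause was not tested. Protein-coding transcripts alone gave 57.1 for Adamts, 4.46 for Adamtsl and 39.8 for Lox, and a median of 3.80 TPM. With either library alone this median was 5.75 to 6.54 TPM, and the sums were 246 to 268.3 for Mmp, 96.5 to 97.2 for Timp, 87.0 to 91.9 for Adamts, 8.69 to 9.75 for Adamtsl and 40.8 to 42.9 for Lox. Members past 1.5-fold numbered 3 with at least 50 counts, 6 with at least 20, 7 with at least 1 count in each library, and 0 with at least 200; the choice of count minimum sets which low members are tested. The 38 ratios each moved by less than 1 SD of the spread under DESeq2 size factors, total counts, spike-in counts and posterior mean counts. The spread was 2.99% by DESeq2's median gene-wise dispersion and 10.4% with a minimum of 10 counts, beside 9.80% as reported, and the cause was not tested. A search of protein sequences for active site motifs was planned and not run.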
